A study of Rattus norvegicus with 2 samples.

Results

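The urea cycle and the catabolism of amino acids were followed in primary rat hepatocytes through a list of 38 gene symbols. They cover the enzymes of nitrogen disposal and, amino acid by amino acid, the enzymes that break down or make serine, histidine, methionine, tyrosine, tryptophan and others. Members were the probe sets whose gene symbol in the deposited table was on the list, which gave 40 probe sets for 34 of the 13511 named genes. The symbols Uroc1, Amdhd1, Gpt and Ass matched no probe set. Ass is the older name of Ass1. Alanine aminotransferase, now Gpt, stood in the table as Gpt1, outside the rule, and was called absent on both arrays.

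The study measured messenger RNA on Affymetrix Rat Genome 230 2.0 arrays, to find genes that respond to thyroid hormone in liver cells. The T3 group received triiodothyronine (T3), the form of thyroid hormone that binds its receptors, at 1 nM over 24 h, and the control group is taken as untreated from its sample name and the design text, since the treatment note in the labels names T3 for both samples. Both groups were hepatocytes from male SD rats on collagen-coated plates, in a basal hepatocyte medium with growth factors, and the labels do not give the number of animals or wells behind an array. There was 1 T3 array and 1 control array, so no difference was tested, no p-value is given and the spread between cultures is unknown.

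Values are MAS5 signals, the array maker's summary of the probes of a probe set. A probe set called present on an array is taken as detected there. Present calls numbered 17264 on the T3 array and 17592 on the control array, of 31038 probe sets analysed. Of 14 hepatocyte markers with a named probe set 13 were detected, among them Alb at 3449 with T3 and 3972 in control, while the transcription factor gene Cebpa was absent on both arrays. Their summed signals were 21118 with T3 and 21063 in control. Single hepatocyte markers had ratios of T3 to control signal from 0.868 (Alb) to 1.42 (Hp, 634 with T3, 447 in control). Of the 13, 8 lay above control and 5 below. Markers of bile duct cells were also detected, 5 of 7, with summed signals of 5605 with T3 and 6047 in control. Their ratios of T3 to control signal ran from 0.860 to 0.986, and Sox9 and Spp1 were absent on both arrays. Stellate cell and fibroblast markers had 7 of 9 detected, with summed signals of 2609 with T3 and 2897 in control. Most of that sum came from Vim (1418 with T3, 1621 in control) and Tagln (986 with T3, 1096 in control). Col1a1 and Col3a1 were dim (8.01 and 9.93 with T3, 9.02 and 8.11 in control), with Col1a1 absent in control. Col1a2 and Pdgfrb were absent on both arrays. Leukocyte markers had 2 of 8 detected (summed signals of 304 with T3 and 299 in control) and endothelial markers 2 of 7 (53.7 with T3 and 37.8 in control). The leukocyte markers detected were Cd14 (296 with T3, 294 in control) and the dim Cd163 (7.64 with T3, 4.79 in control, a ratio of 1.60), while Ptprc, Adgre1 and Clec4f were absent on both arrays. Of the endothelial markers, Egfl7 (47.8 with T3, 31.0 in control, a ratio of 1.54) and Tek were detected, and Pecam1 and Cdh5 were absent on both arrays. Cd163 and Egfl7 were thus past 1.5-fold higher, and of the stellate cell markers the dim Lrat was past it lower (7.32 with T3, 13.8 in control, a ratio of 0.532). The part of these other cell types in the ratios below was not tested, and fewer cells of a type cannot be told apart from less RNA per cell.

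When amino acids are burned, their nitrogen is released as ammonia, which is toxic. Hepatocytes near the portal vein turn it into urea through the urea cycle, whose first steps lie in the mitochondrion and whose last steps lie in the cytosol. A narrow rim of cells near the central vein captures the remainder as glutamine. Many of these genes are known in liver to answer to glucagon, glucocorticoids and dietary protein. Thyroid hormone acts through nuclear receptors that bind the sequence AGGTCA and its variants in pairs.

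Promoter stretches from RefSeq (build GRCr8, 250 bases before to 50 after a gene's start) were searched for the 6-letter core AGGTCA on both strands, where it reads TGACCT on the other strand. A promoter was in the table for 29 of the 34 genes and for 24 of the 27 detected genes; Arg1, Hal, Sds, Sdsl and Prodh had no entry. The core stood in 5 of 26 promoters of the detected members (19.2%), those of Nags, Hpd, Hgd, Bhmt and Aadat, and in 16.2% of all 33469 promoters. With the members called absent included, it stood in 9 of 34 promoters (26.5%). A pair of cores in the same direction 4 bases apart, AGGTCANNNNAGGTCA, stood in 0 of the 26 and in 2 of all promoters. Shown are Cps1 and Cbs, the members with a promoter entry whose signals were furthest from control, and Hgd, the detected member with 2 cores. They lie at chr9:76063613-76063912 (plus strand), chr20:9733876-9734175 (minus strand) and chr11:76643718-76644017 (minus strand). Capitals mark the core.
Cps1: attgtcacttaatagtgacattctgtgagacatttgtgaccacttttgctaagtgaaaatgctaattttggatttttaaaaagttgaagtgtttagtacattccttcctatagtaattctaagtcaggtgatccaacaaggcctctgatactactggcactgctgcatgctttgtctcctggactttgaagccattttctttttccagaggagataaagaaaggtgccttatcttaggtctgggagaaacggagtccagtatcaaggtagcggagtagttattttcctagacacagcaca
Cbs: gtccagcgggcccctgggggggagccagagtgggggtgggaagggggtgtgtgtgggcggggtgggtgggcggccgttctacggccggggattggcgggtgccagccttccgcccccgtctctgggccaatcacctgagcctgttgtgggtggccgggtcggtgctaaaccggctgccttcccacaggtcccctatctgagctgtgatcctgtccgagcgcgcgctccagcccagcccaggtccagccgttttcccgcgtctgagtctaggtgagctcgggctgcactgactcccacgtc
Hgd: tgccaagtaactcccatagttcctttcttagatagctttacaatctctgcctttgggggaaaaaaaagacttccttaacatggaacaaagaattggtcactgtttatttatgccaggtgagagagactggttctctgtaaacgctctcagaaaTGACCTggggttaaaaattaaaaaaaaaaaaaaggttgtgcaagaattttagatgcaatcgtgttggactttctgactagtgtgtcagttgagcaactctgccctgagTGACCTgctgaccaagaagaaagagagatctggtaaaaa
A match is a description of these letters and not a binding site, and the windows of Cps1 and Cbs hold no match.

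Most of the pathway stood close to control after T3. Of the 34 genes 27 were detected, each on both arrays, and 0 were at least 1.5-fold higher while 1, the histidine-degrading Hal, was at least 1.5-fold lower. The same rule called 2.81% of all 9670 detected genes higher and 1.68% lower. A gene is represented by its brightest detected probe set. The median log2 ratio of T3 to control signal was -0.0013 over the 27 members and 0.00037 over all detected genes. With T3, 13 members were higher and 14 lower. Of the 27, 23 (85.2%) lay within 1.2-fold of control, against 81.4% of the 9643 other detected genes. Within 1.1-fold lay 16 (59.3%), against 59.0% of those other genes. Of 18332 detected probe sets 4.11% were called higher and 2.65% lower by this rule, against 0 and 1 of the 32 of the members. Hal, at a ratio of 0.590, is listed in the authors' deposited table for decreases of 1.5-fold, and the authors' deposited tables for 2-fold decreases and for 1.5-fold and 2-fold increases held 0 member probe sets.

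**Figure D1:**
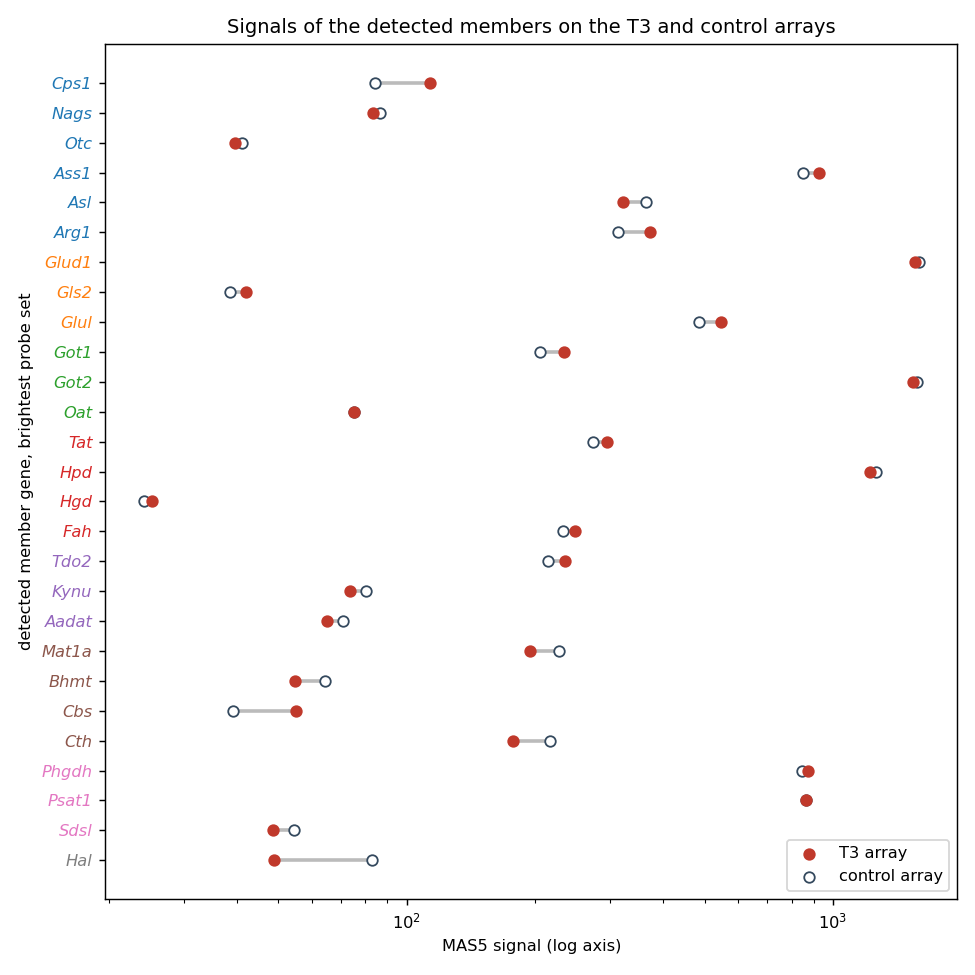
MAS5 signal (log axis) of each detected member on the T3 array (filled) and the control array (open), 1 array each, for the brightest probe set of a gene; name colours mark pathway groups. The pairs of Hal, Cbs and Cps1 are the widest apart, and those of Oat and Psat1 coincide.

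In place of a replicate error, each ratio is set beside the central 95% of ratios of the 500 probe sets nearest to it in signal and present on both arrays. That range holds technical noise and any true response together, and leaves out 5% of probe sets by construction. Of the 27 members 25 lay inside it, and Hal and Cps1 lay outside. The range narrows as signal grows: it ran from 0.653 to 1.66 around the dim Hgd and from 0.862 to 1.13 around Glud1.

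**Figure D2:**
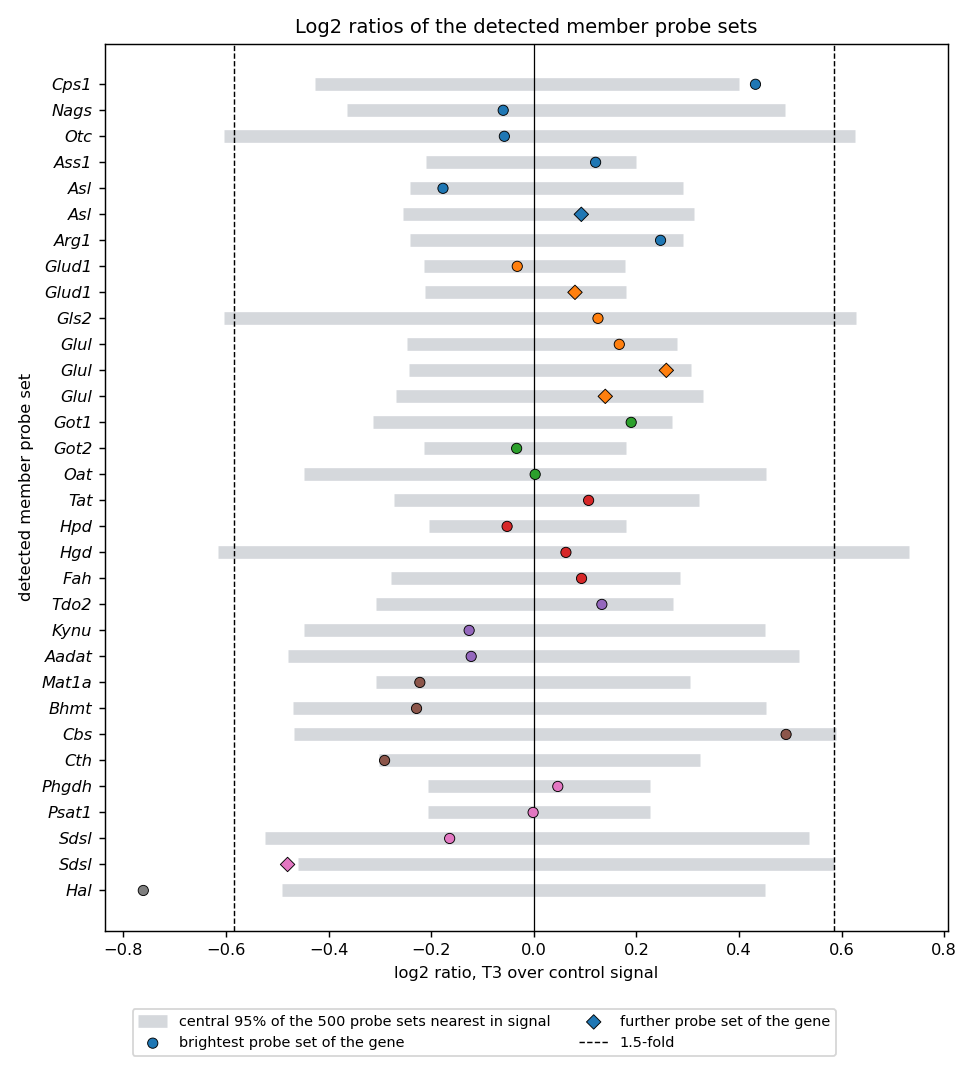
Log2 ratio of T3 over control signal for the 32 detected probe sets of the members (circles, brightest probe set of a gene; diamonds, further probe sets), with the central 95% of the 500 probe sets nearest in signal as grey bars and 1.5-fold as dashed lines. Hal lies below its bar, Cps1 just above its bar, and the dimmer Sdsl probe set just below its own.

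The urea cycle enzymes lay on both sides of control. Cps1, the mitochondrial enzyme that joins ammonia to bicarbonate and commits nitrogen to the cycle, had a signal of 113 with T3 and 84.1 in control. This ratio of 1.35 (log2 0.43) exceeded the range of 0.744 to 1.32 for probe sets of like signal but not 1.5-fold, and Cps1 has 1 probe set, so no repeat measurement. Nags, which makes the N-acetylglutamate that Cps1 needs as its activator, had signals of 83.2 with T3 and 86.7 in control, a ratio of 0.960. Otc, which joins carbamoyl phosphate to ornithine, had 39.5 with T3 and 41.1 in control, a ratio of 0.961. Thus of the 3 mitochondrial enzymes Cps1 was above control, and the other two were within 1.1-fold of it.

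In the cytosol, Ass1, which condenses citrulline with aspartate, had signals of 925 with T3 and 851 in control, a ratio of 1.09. Arg1, the arginase that releases urea, had 372 with T3 and 314 in control, a ratio of 1.19 inside its range of 0.846 to 1.22. Asl, which splits argininosuccinate, was measured by a pair of probe sets that disagreed in direction. The brighter had 321 with T3 and 363 in control (0.885), and the other 307 with T3 and 288 in control (1.07), so Asl has no direction here. The median log2 ratio of the 6 urea cycle enzymes was 0.03.

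Enzymes that handle glutamate and glutamine lay within 1.2-fold of control. Glul, glutamine synthetase, the ammonia-capturing enzyme of the perivenous rim, was higher with T3 in all 3 of its probe sets. Their signals were 545, 332 and 299 with T3, against 486, 278 and 271 in control, which gives ratios of 1.12, 1.196 and 1.101. Each of the 3 ratios stood inside the range of probe sets of like signal, and probe sets of a gene share the same RNA and are not replicates of the culture. Gls2, the liver-type glutaminase that frees ammonia from glutamine, had 41.9 with T3 and 38.4 in control. Glud1, glutamate dehydrogenase, gave 0.978 in its brighter probe set (1553 with T3, 1588 in control) and 1.06 in the other (1093 with T3, 1034 in control). Over the 9 members of nitrogen disposal, urea cycle included, the median log2 ratio was 0.12, with 5 above control and 4 below. That median is the value of Ass1 alone, and 0 of the 9 were past 1.5-fold in either direction. Over the other 18 detected members the median was -0.017, with 8 above control, 10 below and Hal past 1.5-fold.

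The aminotransferases that pass nitrogen between amino acids stood near control. Got1, the cytosolic aspartate aminotransferase, had 234 with T3 and 205 in control, a ratio of 1.14. Got2, its mitochondrial counterpart, had 1537 with T3 and 1573 in control, a ratio of 0.977. A further probe set names Got2 together with other loci and is not counted; its signals were 9.30 with T3 and 8.93 in control. Oat, which links ornithine to proline and glutamate, was level, at 75.4 with T3 and 75.3 in control. Prodh, which starts proline breakdown, was absent on both arrays, and the gene number of its probe set is not that of Prodh in the current gene table.

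Tyrosine breakdown, a chain that ends in fumarate and acetoacetate, was detected at each of its 4 listed enzymes, all within 1.1-fold of control. Tat, tyrosine aminotransferase, the first step and a classical glucocorticoid-induced gene, had 294 with T3 and 273 in control (1.08). Hpd, the dioxygenase that follows, had 1219 with T3 and 1264 in control (0.965). Hgd, homogentisate dioxygenase, had 25.2 with T3 and 24.2 in control (1.04), and Fah, the closing hydrolase, had 248 with T3 and 233 in control (1.07). Hpd and Hgd are among the 5 detected members that hold the AGGTCA core in the promoter window; the ratios of the others were 0.960 for Nags, 0.919 for Aadat and 0.853 for Bhmt. Ddc, the aromatic amino acid decarboxylase, was absent in both of its probe sets on both arrays.

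On the kynurenine pathway of tryptophan, Tdo2, the dioxygenase that opens it, had 235 with T3 and 214 in control, a ratio of 1.096. Kynu, kynureninase, had 73.5 with T3 and 80.2 in control (0.916). Aadat, which transaminates kynurenine and the lysine product 2-aminoadipate, had 65.1 with T3 and 70.9 in control (0.919). Among the members the pathway was thus detected at Tdo2, Kynu and Aadat, all within 1.1-fold. Outside the list, Afmid (kynurenine formamidase) had 67.8 with T3 and 89.8 in control in its brightest probe set. Its ratio of 0.755 was just inside its range of 0.752 to 1.37, and its further detected probe sets gave 0.964 and 1.24. Kyat1 and Kyat3 had ratios of 1.09 and 1.03. Kmo and Haao, which lead towards quinolinate and NAD, were absent on both arrays. Qprt, which makes a precursor of NAD, was detected (189 with T3, 174 in control).

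Of the methionine and cysteine enzymes, 0 of 4 detected members lay within 1.1-fold of control, against 16 of all 27 detected members. The share over all detected genes was 59.0%, and 1.1-fold is narrower than the like-signal range of each of these genes. Mat1a, the liver enzyme that makes S-adenosylmethionine, had 195 with T3 and 227 in control, a ratio of 0.857. Bhmt, which remethylates homocysteine with betaine, had 54.8 with T3 and 64.2 in control (0.853). Cth, cystathionine gamma-lyase, had 177 with T3 and 217 in control (0.817), at the lower edge of its range of 0.811 to 1.25. These 3 lay below control, each inside the range for its signal. Cbs, cystathionine beta-synthase, the step just before Cth, lay on the other side: its signals were 54.9 with T3 and 39.0 in control, a ratio of 1.41, inside a range of 0.724 to 1.505. Among the members Cbs was the nearest to 1.5-fold without passing it. Its detection p-values of 0.0186 with T3 and 0.0239 in control were close to the highest that was called present, 0.0461. Gnmt, which consumes S-adenosylmethionine, was absent on both arrays.

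Serine and glycine enzymes split into those that make serine and those that break it down. Phgdh, which starts serine synthesis, had 873 with T3 and 845 in control, and Psat1, the next enzyme, had 863 with T3 and 864 in control, so both were within 1.1-fold. Sdsl, a serine dehydratase-like enzyme, was lower with T3 in both of its probe sets. They had 48.5 and 39.3 with T3, against 54.4 and 54.8 in control, which gives ratios of 0.893 and 0.717. The second of these ratios lay just under its range of 0.727 to 1.501, at a detection p-value of 0.0461 with T3. Sds, the serine dehydratase of liver known for its rise in fasting, and Agxt, which detoxifies glyoxylate to glycine, were absent on both arrays.

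The member furthest from control was Hal, the only listed histidine enzyme with a probe set, since Uroc1 and Amdhd1 had none. Hal, histidine ammonia-lyase, which turns histidine into urocanate and ammonia, had a signal of 48.8 with T3 and 82.8 in control. Its ratio of 0.590 (log2 -0.76) lay under all of the 500 probe sets nearest in signal, whose central 95% ran from 0.712 to 1.37. It was called present on both arrays, with detection p-values of 0.00195 with T3 and 0.000732 in control. Hal has 1 probe set, and there is no replicate check on this difference. With a pseudocount of 64 added to both signals its log2 ratio was -0.38, no longer past 1.5-fold.

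**Figure D3:**
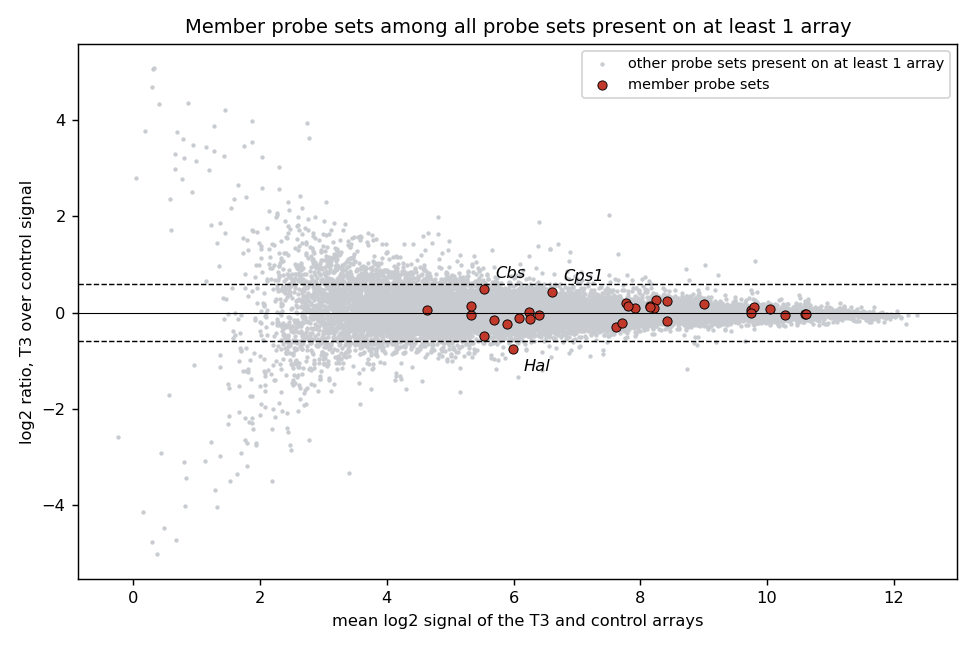
Log2 ratio of T3 over control signal (vertical) against the mean log2 signal of both arrays (horizontal) for probe sets present on at least 1 array, members in red, 1.5-fold as dashed lines. The cloud widens at low signal; Hal lies below the lower dashed line at a log2 ratio of -0.76, and Cbs and Cps1 lie under the upper one.

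Absent members have no fold. They were Prodh, Ddc, Kmo, Haao, Gnmt, Sds and Agxt, 7 genes with 8 probe sets, and their signals ran from 0.695 to 24.7 with T3 and from 1.83 to 29.9 in control. An absent call says that the detection test did not find the perfect-match probes brighter than their mismatch partners, not that the transcript was lacking; for Haao, for example, the detection p-values were 0.130 with T3 and 0.112 in control.

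The other enzymes and carriers of the same pathways were described from a list of 103 symbols. Of the 91 with a named probe set 83 were detected, of which 1 passed 1.5-fold on the higher side and 1 on the lower side. Their median log2 ratio was 0.03, and 68 (81.9%) lay within 1.2-fold of control. Csad, cysteine sulfinate decarboxylase, an enzyme of taurine synthesis, was the higher gene, with 85.3 with T3 and 55.6 in control, a ratio of 1.53 above its range of 0.717 to 1.41. Tdh, threonine dehydrogenase, was the lower one, with 32.9 with T3 and 51.0 in control, a ratio of 0.645 below its range of 0.672 to 1.54. Both were measured by 1 probe set each, and with a pseudocount of 16 neither was past 1.5-fold.

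Within these groups, the 2 brightest genes of each had ratios in their brightest probe sets between 0.893 (Gcsh, of the glycine cleavage system) and 1.09 (Qprt, which makes a precursor of NAD). Among carriers and partners of the urea cycle, Slc25a13 (citrin, which exports aspartate from mitochondria for Ass1) had a ratio of 1.01, with 0.823 in a second detected probe set, and Nit2 had a ratio of 1.03. In phenylalanine breakdown Pcbd1 and Qdpr, which recycle the tetrahydrobiopterin cofactor, had ratios of 1.06 and 1.04. For branched-chain amino acids, 22 of 22 genes were detected, 0 were past 1.5-fold and 21 lay within 1.2-fold, with Hibadh (valine breakdown) at 0.949 and Dld (the shared dehydrogenase subunit) at 1.03. Ahcy and Ahcyl1 had ratios of 0.956 and 0.896, Shmt2 1.07, Kyat3 1.03, Aldh7a1 0.934, Asns 0.924 and Aldh18a1 0.932. Gcdh, of lysine breakdown, had a ratio of 1.01 in its brightest probe set, while a second one, present on both arrays, gave 0.706, below its range of 0.746 to 1.33, and the dimmest, absent with T3, gave 1.07. The further probe sets of Ahcyl1 gave 0.892 and 0.893.

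**Figure D4:**
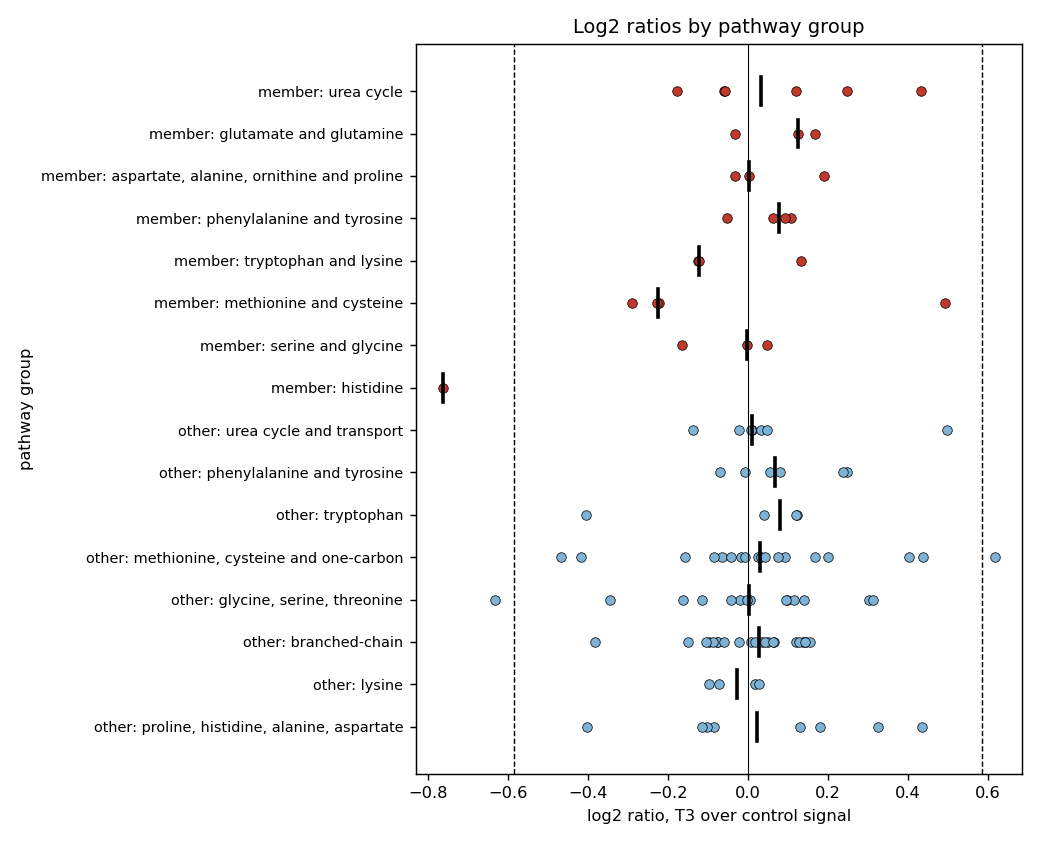
Log2 ratio of T3 over control signal by pathway group, 1 point per detected gene, for the members (red) and the other genes of the same pathways (blue); black ticks are group medians and dashed lines 1.5-fold. Hal and Tdh lie past the lower line and Csad past the upper one.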

How the data were processed

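RNA of T3-treated and of control hepatocytes was hybridised to 1 array each, so the number of arrays limits the precision. The authors deposited an intensity per probe set and array, a MAS5 signal after normalization per the file headers; Affymetrix Expression Console is the tool in the submitters' processing notes. No source used here gives its version or the scaling target. They also deposited a detection p-value with its call, and a ratio of T3 to control signal, which equalled the quotient of the signals. The 57 control probe sets among the 31095 were removed. Members were matched by the symbol in the file without a suffix of predicted or mapped; other genes were named by gene number from the gene table of build GRCr8. A gene was represented by its detected probe set of highest arithmetic mean signal, and the log2 ratio had no pseudocount. A gene was counted as past 1.5-fold when its ratio was at least 1.5 in either direction with a present call on the brighter array. With 1 array a group, no test was run. Computations used Python 3.11.15, pandas 2.3.3 and statsmodels 0.14.6, tested on simulated data. The simulation planted 2-fold changes with noise below the spread at dim members, so it does not show how the 1.5-fold rule performs there.

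The members and gene lists were chosen with earlier results of these data known. Each member was named. Of the other pathway genes, those past 1.5-fold and the 2 brightest of each group were named by rule. Afmid, Kyat1 and the further genes under Other observations were named after their values were seen. The 11 alternatives varied the probe set per gene, pseudocount, detection filter, normalization and source of the signals.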

Additional observations from a re-analysis of the deposited data

How the results depend on the processing

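The median log2 ratio of the detected members stayed between -0.017 and 0.0088 under all 11 alternatives. Hal remained the member past 1.5-fold lower except with a pseudocount of 64, which gave 0; without a detection filter 3 members were lower (Hal, and the absent Prodh and Kmo) and 2 higher (the absent Gnmt and Agxt). Of the other pathway genes, 2 were higher with the probe set of largest change, where a second probe set of Gch1 joined Csad; 0 were higher and 0 lower with a pseudocount of 16 or 64; 2 were higher and 4 lower without a detection filter. These follow from construction, since pseudocounts shrink the ratios of dim probe sets and dropping the filter admits absent ones.

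Over all genes 272 were higher and 162 lower as reported. A pseudocount of 16 left 63 and 28; the counts were 8 and 5 with one of 64, 1512 and 1057 without a filter, 164 and 81 when presence on both arrays was required, 95 and 55 when dim probe sets below the median signal were dropped, and 368 and 253 with the probe set of largest change. Higher genes made up 62.7% of these calls as reported, 56.7% after loess (238 and 182) and 53.0% after quantile normalization (221 and 196). Among 297 member log2 ratios recomputed, 5 moved by more than the spread of probe sets of like signal, 1 each for Asl, Cbs, Glud1, Hal and Sdsl. Many of the alternatives could not change a sign. A pseudocount keeps it, the other source held the same signals, and the filter settings left each detected member's ratio as reported. The choice of probe set could act only on the 4 members with several detected probe sets. The sign held under all alternatives for 24 members, which was thus largely fixed by construction. Among the exceptions, Oat and Psat1 lay close to equality, and Glud1 turned with the choice of probe set (log2 ratios of 0.02 and 0.08). Asl kept its sign although its probe sets disagree, so its direction is no firmer for that. No paired analysis was possible because each group had 1 array.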

Other observations

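Among the other genes of methionine, cysteine and one-carbon metabolism, 18 were detected, of which 10 lay above control and 8 below, 10 lay within 1.1-fold and Csad was past 1.5-fold. Cdo1, picked out after its values were seen, is cysteine dioxygenase, which oxidises cysteine to cysteine sulfinate, the substrate of Csad. It had signals of 152 with T3 and 112 in control, a ratio of 1.35, above its range of 0.788 to 1.32 for probe sets of like signal and under 1.5-fold. In the same group Suox, Mpst and Tst had ratios of 0.989, 0.943 and 0.995. By brightest probe set, the lowest ratios of the group were those of Gatm (0.723) and Dmgdh (0.748), each inside its range. A second probe set of Mat2a, present on both arrays, gave 0.718 (155 with T3, 215 in control). That ratio lay below its range of 0.795 to 1.32, while the brightest probe set of Mat2a gave 1.07.

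Gch1, GTP cyclohydrolase, which starts the synthesis of tetrahydrobiopterin, also picked out after its values were seen, was higher with T3 in both of its probe sets. These probe sets share the same RNA and are not replicates of the culture. The brighter had 178 with T3 and 151 in control, a ratio of 1.18 inside its range of 0.790 to 1.23. The other was absent in control at 23.9 and present with T3 at 40.2.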
